A study of Gallus gallus with 12 samples.

Results

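Heat shock proteins and chaperones were described in the maxillary prominences of chicken embryos, the paired facial swellings that form the sides of the upper jaw. The 8 genes were HSPH1, HSPA8, HSPA2, HSPA5, HSP90AA1, HSP90AB1, HSP90B1 and HSPD1, and their members were all probe sets that the platform annotation assigns to one of these symbols. They are 8 of 13008 genes on the array, with 12 of its 37693 chicken probe sets, and 11 of the 12 were bright enough to be tested, among 21354 tested in all. The question was whether the low level of HSPH1 in tissue exposed to Noggin is shared by other chaperones. HSPH1 was selected on its low intensity with Noggin on these arrays, so its Noggin values are a description with no test. The tests concern the 10 probe sets of the other 7 genes. The 8 genes and the lists of related genes were chosen with earlier results of these data known. The tests are therefore not free of those results.

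Embryos at Hamburger Hamilton stage 15 (25 somites), incubated at 38 °C, each received a pair of beads in the side of the head. The tissue was taken 16 h later, at stage 18. The control group, Tris+DMSO, carried 1 bead soaked in each carrier. Noggin+DMSO carried Noggin at 1 mg/ml in place of Tris, Tris+RA carried all-trans-retinoic acid (RA) at 1 mg/ml in place of DMSO, and Noggin+RA carried both agents. Every embryo therefore had bead implants, the controls included. Each of the 3 replicates of a group was a pool of 12 to 15 maxillary pieces, mesenchyme with its epithelium, hybridised to 1 array, and so the 12 arrays give differences between pools and not between single embryos. The number of arrays limits the precision. In such bulk tissue, fewer cells of a type and less RNA per cell cannot be told apart.

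Chaperones bind unfolded protein chains and help them fold, assemble or be degraded. In the cytosol HSP70 proteins bind and release chains with the energy of ATP, HSP110 proteins such as HSPH1 reload HSP70 with nucleotide and hold unfolded chains, and HSP90 proteins finish the maturation of signalling proteins, while HSP60 in the mitochondria and a separate set in the endoplasmic reticulum (ER) serve those compartments. Heat shock factors switch on many of the cytosolic genes together when unfolded protein accumulates, and the ER genes answer to the unfolded protein response. These roles are known mainly from mammals and yeast. Noggin is a secreted antagonist that binds bone morphogenetic proteins, and retinoic acid is a vitamin A derivative that acts through nuclear receptors. Both pathways pattern the face.

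HSPH1 was lower on every Noggin array than on any array without Noggin. Values are deposited probe set intensities on a linear scale. The leading (brightest) HSPH1 probe set read 394, 277 and 370 with Tris+DMSO, and 120, 125 and 83.1 with Noggin+DMSO. It read 258, 245 and 190 with Tris+RA, and 169, 168 and 122 with Noggin+RA. The 4 groups had means of 347 ± 62.0, 109 ± 22.9, 231 ± 36.3 and 153 ± 26.6 in that order (SD, n = 3 each), so the order from highest to lowest was Tris+DMSO, Tris+RA, Noggin+RA, Noggin+DMSO. Of the neighbours in that order, Tris+DMSO did not overlap Tris+RA and Tris+RA did not overlap Noggin+RA. The ranges of Noggin+RA and Noggin+DMSO met, since the lowest Noggin+RA array lay below the highest Noggin+DMSO array.

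**Figure D1:**
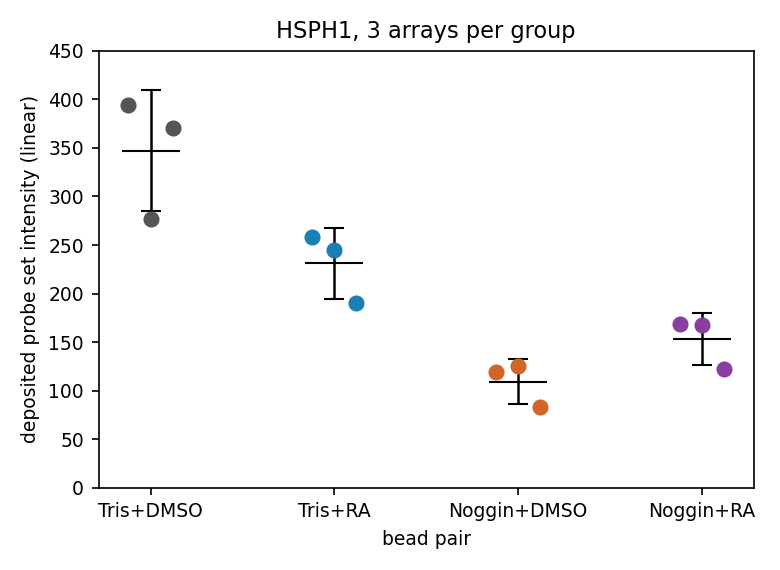
HSPH1 intensity (deposited linear values, vertical axis) on each of the 12 arrays by bead pair; points are arrays, horizontal lines the group means and bars 1 SD (n = 3). The 3 Noggin+DMSO arrays lie between 83.1 and 125, and the 3 Tris+DMSO arrays between 277 and 394.

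As differences on the scale of log2(intensity + 16), HSPH1 was lower by 2.90-fold with Noggin alone (log2 difference -1.54, SE 0.189) and by 1.46-fold where RA was present on both sides (-0.55). The 6 Noggin arrays together averaged 131 ± 32.7 against 289 ± 78.1 for the 6 Tris arrays, an average log2 difference of -1.04 (SE 0.134). With both agents against the control the difference was -1.10, or 2.14-fold lower. The log2 difference with Noggin alone was the 12th lowest of the 21354 probe sets tested, and this rank belongs to the contrast that chose the gene. Array 3 of Noggin+DMSO was the lowest for HSPH1, and without it the difference with Noggin alone was -1.38.

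The 2 annotated probe sets of HSPH1 did not give the same information. The second read between 0.0713 and 2.04 and was above the array background on 0 of 12 arrays, so all values of HSPH1 come from 1 probe set, which was above background on all 12.

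For RA, which the choice of HSPH1 did not use but which shares arrays with the contrast that did, HSPH1 did not pass the test in either state. Tris+RA read 1.47-fold lower than Tris+DMSO (log2 difference -0.55, adjusted p = 0.582 by limma with Benjamini-Hochberg adjustment over all probe sets), with no overlap of the groups. Of all 21354 probe sets 0 passed for RA alone, so the missing call is not particular to HSPH1. The lack of overlap was not set beside a share of all probe sets. Noggin+RA read 1.35-fold higher than Noggin+DMSO (0.44, adjusted p = 0.502), and without array 3 of Noggin+DMSO the difference was 0.28. HSPH1 was chosen as high on the Tris+DMSO arrays and low on the Noggin+DMSO arrays, which are the baselines here. A fall from Tris+DMSO and a rise from Noggin+DMSO can follow from that choice, so no inference is drawn from these signs. The average over both states was -0.06 (adjusted p = 0.937), and with single arrays left out it ran from -0.14 to 0.012, so it had no stable sign. The Noggin difference with RA minus the one without was 0.99 (SE 0.267), given as a description because it contains the contrast that chose the gene.

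Among the other 7 genes, with Noggin alone, 0 of 10 probe sets passed limma's test at an adjusted p below 0.05 as lower. Of all 21354 tested, 1.99% were called lower in this comparison. At an unadjusted p below 0.05 there was 1 of 10, against 24.7% of all probe sets. The signs nevertheless leaned one way: 9 of 10 probe sets and 6 of 7 genes were below 0, beside 4552 of all 10158 genes. The median of the 7 genes was -0.15, beside 0.04 over all genes, with a range of -0.37 to 0.13. The leading probe sets of the 7 were each brighter than at least 97.4% of chicken probe sets. The part of brightness in this gap was not tested. In 4 of 10 probe sets (both of HSP90AA1 and the second of HSPD1 and of HSP90B1) the 3 Noggin+DMSO arrays all lay below the 3 Tris+DMSO arrays, which 12.4% of all probe sets did.

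The size of that lean depended on single control pools. Array 1 of Tris+DMSO was the highest of all 12 for 4 of the 7 genes (HSPA8, HSP90AA1, HSP90AB1 and HSP90B1), with a median deviation of 0.23 from the genes' means on the log2 scale. Array 3 of the same group had a median deviation of -0.14 and was the lowest for 2 genes. Without array 1 of Tris+DMSO the median of the 7 genes with Noggin alone was -0.04, with 5 of 7 below 0. HSPH1, which was chosen on this contrast, was at -1.44 there, and no inference is drawn from the gap. Without array 3 of that group the median was -0.22, and without array 2 it was -0.14, each with 6 of 7 below 0.

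**Figure D2:**
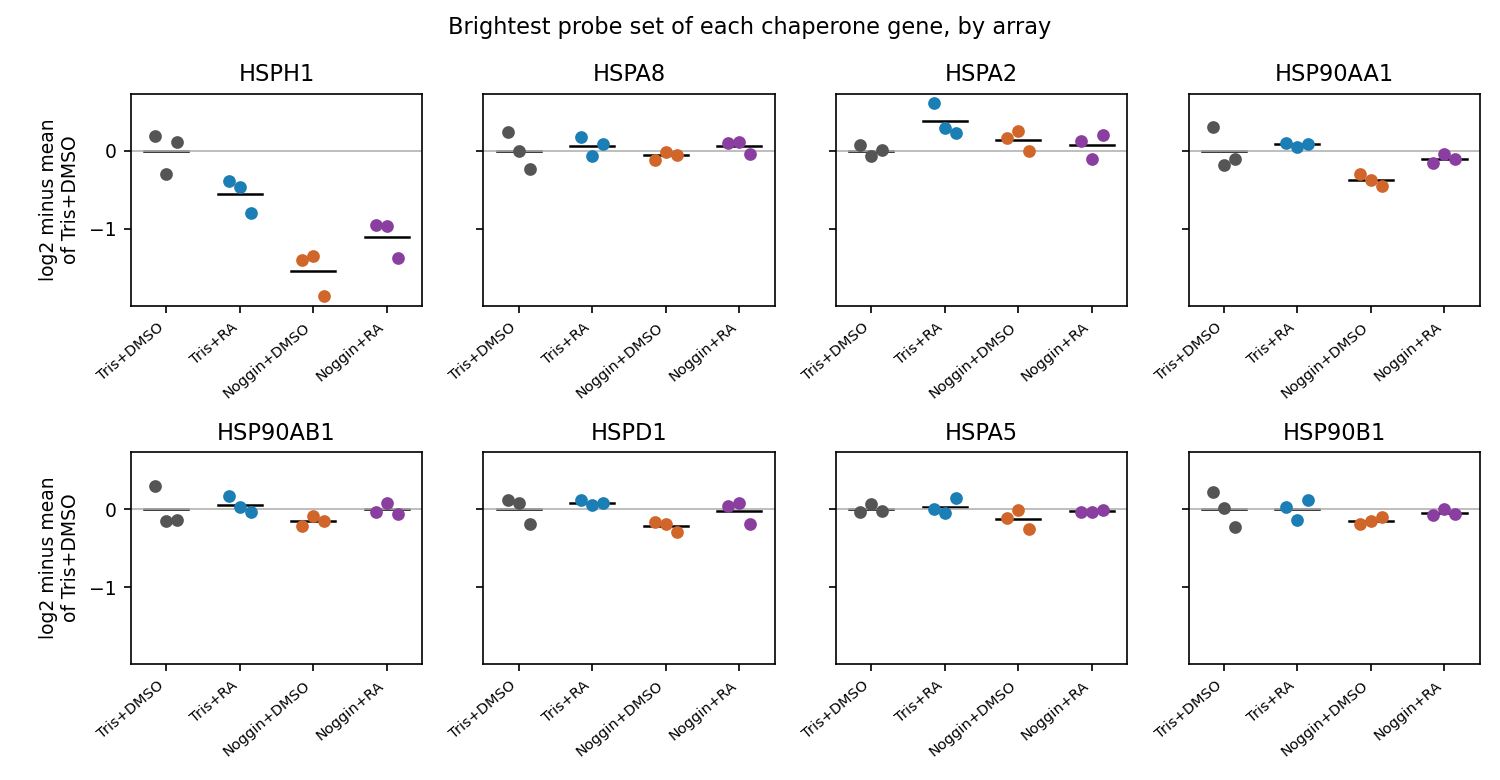
Leading probe set of each of the 8 genes on the 12 arrays, as log2(intensity + 16) minus the mean of Tris+DMSO (vertical axis, the same scale in every panel); points are arrays and horizontal lines group means. HSPH1, chosen for its low Noggin values, spans the largest range of the 8 panels, with Noggin+DMSO at -1.54. The Noggin+DMSO means of the other genes lie between -0.37 and 0.13, and no inference is drawn from the gap.

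HSPA8, the constitutive cytosolic HSP70 (HSC70), is the partner that HSPH1 reloads. It read 6313, 5338 and 4537 with Tris+DMSO, 4934, 5294 and 5136 with Noggin+DMSO, 6030, 5093 and 5674 with Tris+RA, and 5704, 5773 and 5204 with Noggin+RA. The control group alone spanned the range of the other 3 groups. The log2 difference with Noggin alone was -0.06 (95% interval -0.34 to 0.21, adjusted p = 0.791 by limma), and without array 1 of Tris+DMSO it was 0.06. With RA on both sides it was -0.01 (adjusted p = 0.986). The lower end of the interval with Noggin alone corresponds to 1.27-fold lower. No inference is drawn from setting HSPH1 beside it, because HSPH1 was chosen on that contrast.

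HSPA2 is listed in the RefSeq gene table with the older name HSP70. Its arrays read 1497, 1353 and 1425 with Tris+DMSO, 1587, 1691 and 1422 with Noggin+DMSO, 2176, 1748 and 1665 with Tris+RA, and 1551, 1322 and 1639 with Noggin+RA. Tris+RA was the highest group, and all 3 of its arrays lay above all 3 controls. The Noggin differences of HSPA2 had opposite signs without and with RA. With Noggin alone it was 0.13 (95% interval -0.15 to 0.42, adjusted p = 0.557), the only leading probe set above 0, and with RA on both sides it was -0.30 (interval -0.59 to -0.02, adjusted p = 0.339), with no overlap. The difference between these, the interaction, was -0.43 (SE 0.184, adjusted p = 0.806). None of these passed limma's test.

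HSP90AA1, the HSP90 isoform known in mammals as the stress-inducible one, had the most negative difference of the 7 with Noggin alone. Its leading probe set read 4195, 2987 and 3153 with Tris+DMSO, 2774, 2630 and 2487 with Noggin+DMSO, 3647, 3520 and 3626 with Tris+RA, and 3045, 3300 and 3172 with Noggin+RA. Noggin arrays lay below the Tris arrays of the same RA state in both comparisons. The log2 difference was -0.37 with Noggin alone (1.29-fold lower, 95% interval -0.65 to -0.10, adjusted p = 0.103) and -0.18 with RA on both sides (adjusted p = 0.559). The average over both was -0.28 (adjusted p = 0.0650 by limma), which did not pass the threshold of 0.05. It passed with 64 in place of 16 added before log2 (adjusted p = 0.0393), without array 2 of Tris+DMSO (0.0467) and after median centring (0.0229). Without array 1 of Tris+DMSO the difference with Noggin alone was -0.22.

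The second HSP90AA1 probe set gave the same sign with Noggin alone and the opposite one with RA. It read 1561, 1463 and 1540 with Tris+DMSO, 1347, 1155 and 1167 with Noggin+DMSO, 1715, 810 and 1428 with Tris+RA, and 1340, 1755 and 1461 with Noggin+RA. Its differences were -0.31 (adjusted p = 0.399) and 0.26 (adjusted p = 0.638). Array 2 of Tris+RA was the lowest of the 12 for this probe set and not for the leading one, so the 2 probe sets disagree on that array.

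HSP90AB1, the isoform known as constitutive, read between 2482 and 3543 over the 12 arrays. Its group means were 2925 ± 536 with Tris+DMSO, 2601 ± 121 with Noggin+DMSO, 3018 ± 222 with Tris+RA and 2886 ± 148 with Noggin+RA (SD, n = 3 each). The control group again had the widest spread, with array 1 at the top of all 12. The difference with Noggin alone was -0.15 (95% interval -0.43 to 0.13, adjusted p = 0.482).

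HSPD1 is the mitochondrial HSP60, and HSPE1, its lid-forming partner, is its neighbour in the RefSeq gene order. HSPD1 read 4102, 4018 and 3321 with Tris+DMSO, 3373, 3332 and 3092 with Noggin+DMSO, 4104, 3926 and 4009 with Tris+RA, and 3895, 4009 and 3313 with Noggin+RA. All 3 Noggin+DMSO arrays lay below 2 of the 3 controls and around the third. The difference was -0.22 with Noggin alone (95% interval -0.47 to 0.03, adjusted p = 0.263) and -0.16 on average (adjusted p = 0.201). The second HSPD1 probe set gave -0.13 and -0.14 for the same comparisons. HSPE1, which is not among the 8 genes, had -0.24 (adjusted p = 0.211) and -0.19 (adjusted p = 0.128).

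Neither ER member passed limma's test. HSPA5 (BiP, or GRP78), the HSP70 of the ER and the usual readout of the unfolded protein response, read between 2957 and 3877 over all arrays, with group means of 3523 ± 135, 3234 ± 270, 3600 ± 247 and 3450 ± 37.2 for Tris+DMSO, Noggin+DMSO, Tris+RA and Noggin+RA. Its difference with Noggin alone was -0.13 (95% interval -0.34 to 0.09, adjusted p = 0.461). HSP90B1, the HSP90 of the ER, read between 3151 and 4327, and its difference was -0.15 (interval -0.42 to 0.12, adjusted p = 0.479). The second HSP90B1 probe set, which read between 187 and 262, gave -0.16 (adjusted p = 0.412).

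**Figure D3:**
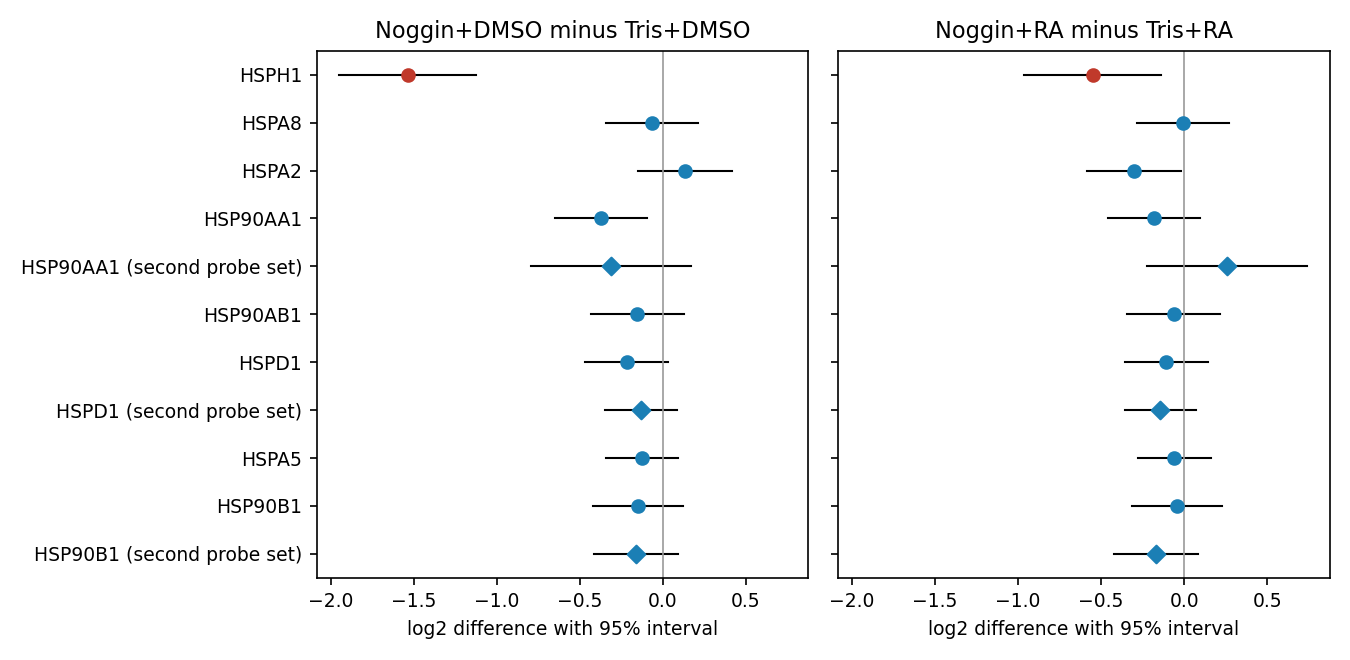
Log2 differences (horizontal axis) of the 11 tested probe sets with 95% intervals from the limma fit, Noggin+DMSO minus Tris+DMSO on the left and Noggin+RA minus Tris+RA on the right; HSPH1 is in red, diamonds are second probe sets. With Noggin alone HSPH1 is at -1.54, and no lower bound of the other 10 probe sets reaches below -0.80. Because HSPH1 was chosen for its low Noggin values, its position and interval are a description and no inference is drawn from the gap.

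With RA on both sides, Noggin gave 0 of 10 probe sets called lower by limma's test, where 0.0515% of all probe sets were, and 1 at an unadjusted p below 0.05 (13.7% of all). All 7 genes were below 0, beside 4711 of all 10158 genes. The median of the 7 was -0.06, or -0.11 without array 2 of Tris+RA and -0.04 without array 3 of Noggin+RA. The shared sign depended on single arrays. It held for 6 of 7 genes without array 3 of Noggin+RA or array 1 of Tris+RA, and for 5 without array 3 of Tris+RA. HSP90AA1 and HSPA2 had groups that did not overlap, 2 of 10 probe sets against 8.39% of all. For the average over both RA states, 0 of 10 were called lower against 4.47% of all, 1 had an unadjusted p below 0.05 (30.6% of all), and 0 had groups that did not overlap (2.31% of all). The 7 genes had a median of -0.10 there, all below 0, as were 4481 of all 10158 genes. Without array 1 of Tris+DMSO that median was -0.07, with 6 of 7 below 0. These 2 comparisons and the one with Noggin alone share arrays, so their signs are not separate observations. For both agents against the control, 0 of 10 were called lower (0.3% of all) and 0 had an unadjusted p below 0.05 (14.7% of all). The median of the 7 genes was -0.03 there, and it was above 0 without array 1 (0.064) or array 2 (0.0024) of Tris+DMSO or array 3 of Noggin+RA (0.0079).

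The count for Noggin depended on how arrays are brought to a common level. The deposited scaling left the median of all tested probe sets at 0.06 for Noggin alone, quantile normalization moved it to -0.01 and centring each array on its median to -0.11. Under median centring HSP90AA1 passed the test with Noggin alone (-0.54, adjusted p = 0.0485 by limma), and for the average effect 4 of 10 probe sets passed (both of HSPD1, the leading one of HSP90AA1 and the second of HSP90B1, from -0.42 to -0.28). Median centring also turned the whole table: of the probe sets called with Noggin alone 59.9% were higher on the deposited scale, 44.4% after quantile normalization and 18.7% after median centring. For the average effect these shares were 60.2%, 42.3% and 16%. HSPA2 with Noggin alone was 0.13 on the deposited scale and -0.04 after median centring. HSPH1 with Noggin alone ranged from -1.71 to -1.54 over these scalings, and the median of the other 7 from -0.32 to -0.13. Because HSPH1 was chosen on this contrast, no inference is drawn from the gap or from its persistence.

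RA gave no call among the other 7 genes. For RA alone 0 of 10 probe sets passed limma's test, as did 0% of the whole table, and 1 had an unadjusted p below 0.05 (6.41% of all). The largest value was HSPA2 at 0.37, which is 1.30-fold higher (adjusted p = 0.597). HSPA2 and the second HSPD1 probe set were the 2 of 10 with all Tris+RA arrays above all controls, where 4.91% of all probe sets were. With Noggin on both sides, 0 of 10 were called (0.445% of all), 0 had an unadjusted p below 0.05 (9.44% of all), and the median of the 7 genes was 0.12.

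In that second comparison the leading probe sets of HSP90AA1, HSP90AB1 and HSP90B1 had all Noggin+RA arrays above all Noggin+DMSO arrays, 3 of 10 against 7.67% of all probe sets. HSP90AA1 was the largest of them at 0.27 (adjusted p = 0.542). On average over both Noggin states all 10 probe sets were above 0 with a median of 0.10 over genes, 0 were called (0.82% of all) and 0 had an unadjusted p below 0.05 (9.63% of all). Of all 10158 genes 5250 were below 0 in that average. The interaction gave 0 calls among the 10 and 0% in the whole table, with 1 unadjusted p below 0.05 (HSPA2, 5.97% of all).

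Across the 12 arrays HSPH1 and the other genes varied to different degrees. The highest HSPH1 array was 4.14-fold above the lowest on the scale of value + 16, while the other 10 probe sets spanned 1.25-fold to 2.14-fold. The HSPH1 span includes the contrast that chose the gene. Brightness differed too: HSPH1 averaged 210 over the arrays, and the leading probe sets of the other 7 genes from 1590 (HSPA2) to 5419 (HSPA8). The second HSP90B1 probe set averaged 218 and spanned 1.36-fold. The part of brightness in these spans was not tested. Given as a description over 12 arrays that share the 4 treatments and their scaling, the Pearson correlation of HSPH1 with the other 7 genes ran from 0.0258 (HSPA2) to 0.736 (HSP90AA1), with a median of 0.482. HSPA8, HSPD1, HSP90AA1, HSP90AB1 and HSP90B1 correlated with each other at 0.595 to 0.869 over 10 pairs. HSPA2 had a median correlation of 0.224 with the other 6.

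**Figure D4:**
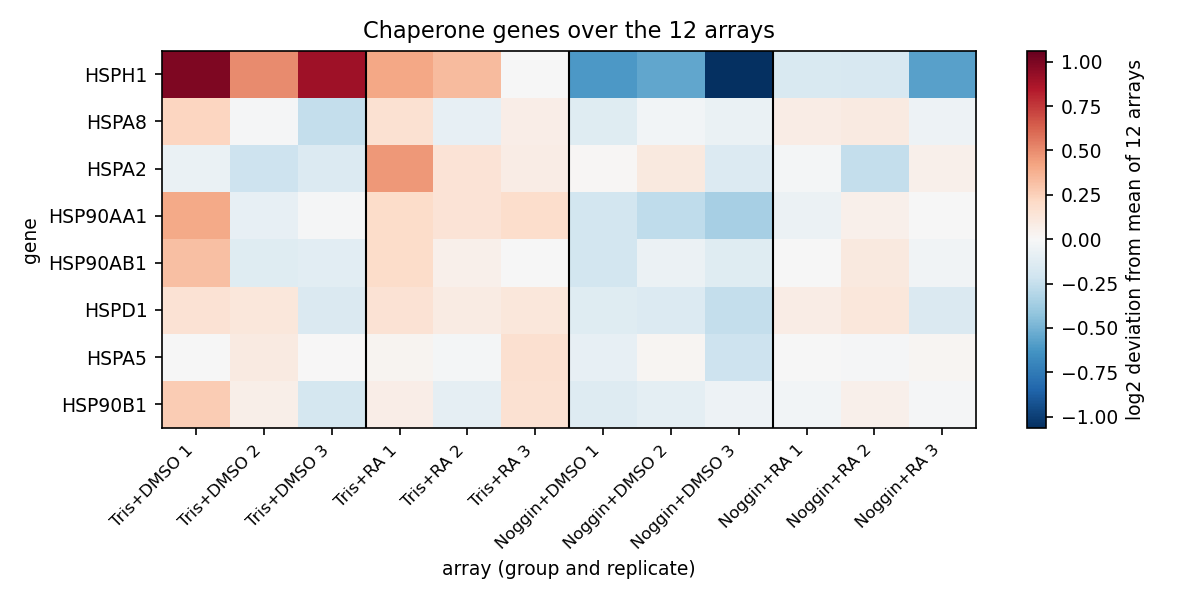
Leading probe set of each of the 8 genes (rows) on the 12 arrays (columns), coloured by the log2 deviation from the gene's mean over all arrays. HSPH1, chosen for its low Noggin values, separates the Tris arrays, at -0.01 or above, from the Noggin arrays, at -0.16 or below. In the other rows array 1 of Tris+DMSO stands highest for 4 of 7 genes.

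The genes whose pattern was most like that of HSPH1 were not among the other 7. Of 9790 genes compared over the 12 arrays, the 5 with the highest Pearson correlation were BCL7A (0.956), CWF19L2 (0.956), ORC1 (0.953), CCT5 (0.942) and GOT1 (0.940). HSP90AA1 ranked 648 in the same order. CCT5, a subunit of the cytosolic chaperonin that folds actin and tubulin, had group means of 2654 ± 230 with Tris+DMSO, 1681 ± 76.7 with Noggin+DMSO, 2444 ± 153 with Tris+RA and 1930 ± 222 with Noggin+RA (SD, n = 3 each). It was picked by its correlation with HSPH1 on these same arrays, so a like order of groups follows from that choice. With the group means removed, its correlation with HSPH1 was 0.633. These deviations are part of the correlation that picked CCT5, so this value is not free of the choice either. The other 7 genes ran from -0.138 to 0.524 on the same measure.

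Beyond the 8 genes, 6 lists of chaperones and their partners held 94 tested genes: HSP70 and HSP110 machines, HSP90 co-chaperones, ER chaperones with the unfolded protein response, mitochondrial chaperones and proteases, small heat shock proteins, and the CCT chaperonin with prefoldin. With Noggin alone 2 were higher and 2 lower, 4.26% beside 5.69% of all 10158 genes, and the median of the 94 was -0.07 beside 0.04. With RA on both sides 0 passed limma's test, as did 0.276% of all genes. For the average effect 4 were higher and 5 lower, 9.57% beside 12.3% of all genes, with a median of -0.05 beside 0.03. The list members that passed therefore lay on both sides of 0. The shares called lower were near those of all genes, 2.13% beside 2.27% with Noggin alone and 5.32% beside 5.33% on average. The shares called higher were 2.13% beside 3.42% and 4.26% beside 6.96%. No inference about the lists is drawn from these counts.

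Of the partners of HSP70 and HSP90, CHORDC1, BAG3 and DNAJB6 fell on average. They were 2 of 21 tested genes of the HSP70 and HSP110 list (9.52%) and 1 of 14 HSP90 co-chaperones (7.14%). Of all genes 5.33% fell on average, and 12.3% were called in either direction. CHORDC1 encodes an HSP90 co-chaperone, and it fell with Noggin alone from 342 ± 21.7 to 160 ± 7.71 (SD, n = 3 each), 2.03-fold (log2 difference -1.02, adjusted p = 0.0196 by limma), and on average by 0.67 on the log2 scale (adjusted p = 0.0179). With RA on both sides CHORDC1 was at -0.33 (adjusted p = 0.517) and BAG3 at -0.40 (adjusted p = 0.318). BAG3, which like HSPH1 releases nucleotide from HSP70, fell on average by 0.50 (adjusted p = 0.0219), and its second probe set was at -0.09 (adjusted p = 0.536). DNAJB6, an HSP40 that keeps proteins from aggregating, fell on average by 0.30 (adjusted p = 0.0452), with other probe sets at -0.15 and -0.10. HSPA4L and HSPA4, the closest relatives of HSPH1 in the HSP110 family, were at -0.28 (adjusted p = 0.137) and -0.09 (adjusted p = 0.385).

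In the cytosolic chaperonin list CCT5 was the 1 of 13 genes that passed, 7.69% beside 5.69% of all genes with Noggin alone and 12.3% on average. It fell with Noggin alone by 0.65 on the log2 scale (1.57-fold, adjusted p = 0.0122 by limma) and on average by 0.50 (adjusted p = 0.00554), beside a list median of -0.12 with Noggin alone and -0.09 on average. In the mitochondria TRAP1, the HSP90 of that compartment, rose with Noggin alone by 0.44 (adjusted p = 0.0336) and on average by 0.33 (adjusted p = 0.0194), and CLPX, the unfoldase of a matrix protease, rose on average by 0.28 (adjusted p = 0.0295). In the ER, FKBP14, a prolyl isomerase of collagen folding, rose with Noggin alone from 43.9 ± 3.21 to 79.9 ± 3.52 (1.60-fold, adjusted p = 0.0260) and on average by 0.60 (adjusted p = 0.00728). CALR (calreticulin, a chaperone of glycoproteins) rose on average by 0.45 (adjusted p = 0.0486), and ERO1A, the oxidase that recharges protein disulfide isomerase, fell by 0.55 (adjusted p = 0.0246). On average 2 of 11 tested genes of the mitochondrial list rose (18.2%). In the ER list 2 of 30 rose and 1 fell (10%), and of all genes 12.3% were called.

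**Figure D5:**
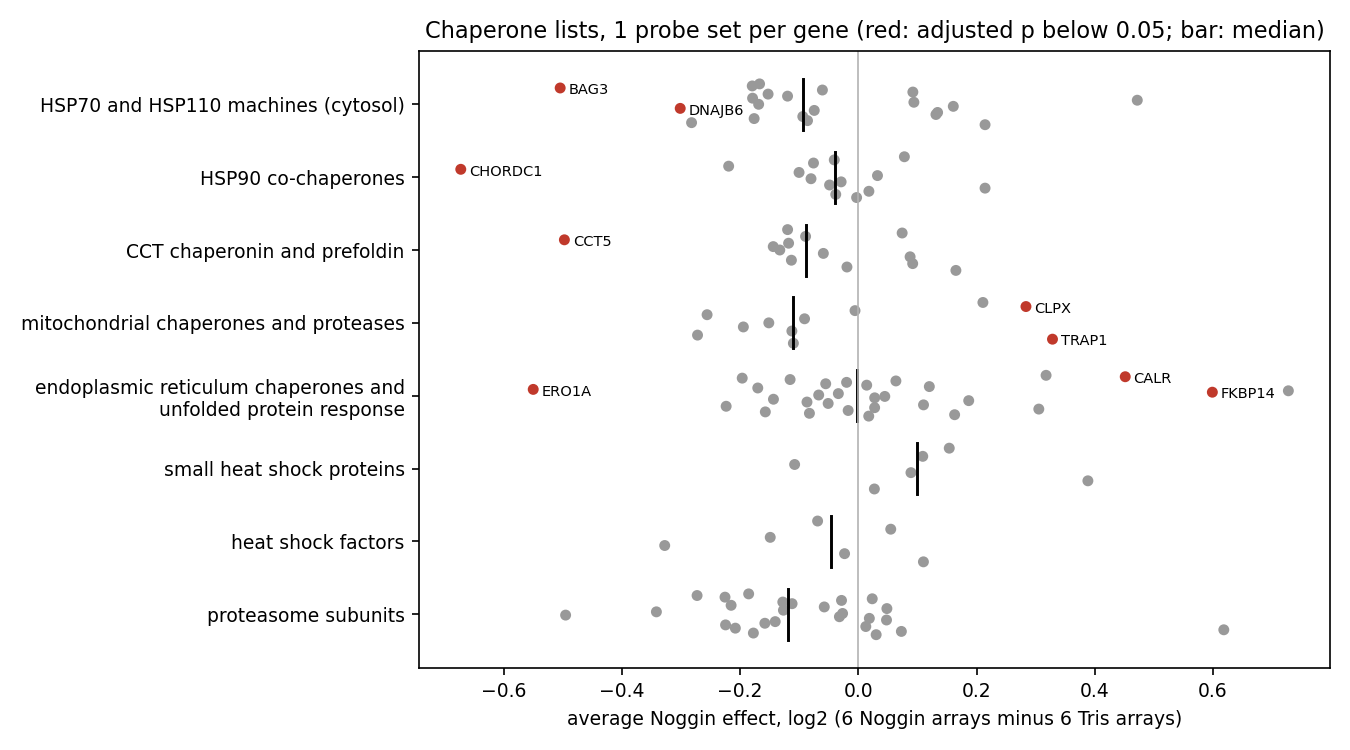
Average Noggin effect (log2, 6 Noggin arrays minus 6 Tris arrays, horizontal axis) for 1 probe set per gene in 8 lists; red points have an adjusted p below 0.05 and are named, black bars are list medians. The 9 red points lie on both sides of 0, from CHORDC1 at -0.67 to FKBP14 at 0.60.

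These calls differed in how much they rested on single arrays. For the average effect CHORDC1, CCT5, BAG3, FKBP14 and TRAP1 passed with any 1 of the 12 arrays left out. ERO1A was lost (adjusted p up to 0.0603) without array 3 of Noggin+RA, Noggin+DMSO or Tris+RA or array 1 of Tris+DMSO. CLPX passed in 3 of the 12 cases (without array 1 of Noggin+DMSO, or array 2 or 3 of Tris+DMSO), with an adjusted p up to 0.0712. DNAJB6 and CALR passed in 2 of 12 (without array 1 of Tris+RA or array 3 of Tris+DMSO), with adjusted p up to 0.103 and 0.105. With Noggin alone, CCT5 was lost without array 3 of Noggin+DMSO (adjusted p = 0.0547), and CHORDC1 without any 1 of the Noggin+DMSO arrays or array 1 of Tris+DMSO (adjusted p up to 0.0638). FKBP14 and TRAP1 were lost without any 1 of the 6 arrays of that comparison, with adjusted p up to 0.0902 and 0.126. Median centring also ended the average calls of TRAP1 (adjusted p = 0.138), CLPX (0.207) and CALR (0.0982), and the calls with Noggin alone of FKBP14 (0.0558) and TRAP1 (0.154). Quantile normalization ended the average call of DNAJB6 (0.0756) and that of FKBP14 with Noggin alone (0.0609). The average calls of DNAJB6 and CALR were also lost with 1 added before log2 (0.0528 and 0.0593), with no filter on dim probe sets (0.0669 and 0.0784) and with the replicate number as a block (0.0609 and 0.0620). That of TRAP1 with Noggin alone was lost with the block (0.0510) and with only the 2 groups compared in the fit (0.0856).

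Cell type markers and array quality moved with Noggin too, and their part in the HSPH1, CHORDC1 and CCT5 values was not tested except where a value follows. Of the markers of the labelled tissue, PRRX1, TWIST1, MSX1 and COL1A2 for mesenchyme and EPCAM and CDH1 for epithelium were above background on all 12 arrays. In the same lists TWIST2 and MSX2 were above it on 11, CLDN4 on 10, KRT5 on 9, FGF8 on 6 and LHX6 on 0. Markers of other tissues, such as NEFM, SOX10 and OTX2, were above it on all 12 too, so presence does not single out the labelled tissue. Of 11 tested mesenchyme markers 5 fell (PRRX1, LHX8, MSX1, MSX2 and DLX1) and 1 rose (PDGFRA) on average with Noggin. The summed intensity of the 11 ran from 3879 to 4657 on Noggin arrays against 3992 to 7322 on Tris arrays. Whether these genes or the number of mesenchyme cells changed was not tested. Of 11 tested red blood cell markers 4 rose (SLC4A1, ANK1, TAL1 and GFI1B, none of them a globin), with sums of 24584 to 30531 against 14138 to 27220. Of 9 tested epithelial markers 2 rose, with sums of 5855 to 7270 against 4787 to 6573. Among 40 tested markers of endothelium, white blood cells, skeletal muscle, neurons, glia, and lens with retina, 6 rose and 1 fell. Of all genes 6.96% rose and 5.33% fell in the same comparison. With RA on both sides 0 mesenchyme, epithelial or red blood cell markers passed limma's test, beside 0.276% of all genes. The globins HBA1, HBAD, HBE and HBZ, which define red blood cells, were above background on all 12 arrays. So were SLC4A1, ANK1, EPB42, EPB41 and TAL1 of the same list, while GFI1B was above it on 7, GYPC on 5 and RHAG on 0.

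The 5′ over 3′ ratio of the GAPDH control, a measure of how complete the RNA was, averaged 0.695 ± 0.0409 on Noggin arrays and 0.815 ± 0.0266 on Tris arrays (SD, n = 6 each, two-sided exact permutation p = 0.00216, the smallest these groups can give, adjusted p = 0.00361 over 5 measures). The EF1A ratio was 0.582 ± 0.0560 against 0.654 ± 0.0308 (exact permutation p = 0.0281, adjusted p = 0.0352). The actin ratio was 0.498 ± 0.0572 against 0.533 ± 0.0162 (exact permutation p = 0.182). The median intensity was 44.2 ± 2.52 against 38.3 ± 2.17, and that of probe sets not designed for chicken genes 6.43 ± 0.845 against 5.02 ± 0.485 (exact permutation adjusted p = 0.00361 for each). Array 3 of Noggin+DMSO, the lowest for HSPH1, also had the lowest GAPDH ratio (0.619) and the highest such background (8.10). With the GAPDH ratio as a covariate, whose values do not overlap between Noggin and Tris arrays, the HSPH1 difference with Noggin alone was -1.47. None of the 9 list genes passed limma's test in that fit, with average differences of -0.65 for CHORDC1 (adjusted p = 0.713) and -0.60 for CCT5 (adjusted p = 0.547). The same fit called no probe set of the whole table lower in the Noggin comparisons, so the lost calls of falling genes are not particular to them. For the rising genes FKBP14, TRAP1, CLPX and CALR the loss was not set beside a share of all probe sets. Because the covariate tracks the bead groups, this fit cannot separate Noggin from the ratio for HSPH1 or the list genes.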

How the data were processed

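Per the labels' protocols, 500 ng of RNA per pool was labelled with biotin and hybridised to a 1-colour Affymetrix chicken array. The values deposited by the authors are linear probe set intensity. After trimming 2% of the probe sets at each end, the deposited intensities had the same mean on every array, 150.0, but not the same quantiles. The summarization software is not given in the sources used here. Labelling starts at the 3′ end.

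Values were analysed as log2(intensity + 16) with limma 3.58.1 in R 4.3.3, with 1 mean per group over 12 arrays. Tested were 21354 chicken probe sets above their array's median on at least 3 arrays, with Benjamini-Hochberg adjusted p below 0.05 over all of them. Background was the 95th percentile of the probe sets not designed for chicken genes. The fit was tested on simulated data with 200 changed probe sets. All member probe sets are named. A gene is led by its brightest probe set. List genes are named where they pass the test, with at most 4 others per list, and the 5 genes most like HSPH1 by correlation. The 8 genes and the lists were chosen with earlier results of these data known. Pools are biological replicates per the labels. Gene symbols come from the platform annotation, and 8 of 8 gene identifiers matched the RefSeq table. Replicate numbers did not pair arrays. Alternatives covered the added constant, scaling, filter, replicate block, GAPDH covariate, groups in the fit, probe set averaging and single arrays left out. Promoter and protein sequences were not used here, so a planned motif search was not run.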

Additional observations from a re-analysis of the deposited data

How the results depend on the processing

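The counts of called probe sets among the other 7 genes were 0 in all 8 comparisons under the alternatives run, apart from those that follow. With Noggin alone the count was 1 under median centring. For the average Noggin effect it was 1 with 64 added before log2 and 4 under median centring, and from 0 to 1 with single arrays left out, the 1 being without array 2 of Tris+DMSO (HSP90AA1 at -0.32, adjusted p = 0.0467 by limma). HSPH1 with Noggin alone was -1.24 with 64 added, and from -1.68 to -1.38 with single arrays left out. Of 715 values of the other 7 genes under an alternative 42 changed sign, 5 of them under quantile normalization and 9 without array 1 of Tris+DMSO, and 0 of the 42 passed the test. Under quantile normalization 2 of the 7 genes were below 0 for the average RA effect in place of 0, and 3 for RA alone in place of 1. Some of the further sign changes follow. Without array 3 of Tris+DMSO, 4 of the 7 genes were below 0 for RA alone in place of 1. The fit with the GAPDH covariate changed 6 signs of the 7 genes. In that fit 5 of the 7 were below 0 for the average Noggin effect in place of 7. With the GAPDH ratio as a covariate, HSPA5 was 0.23 with Noggin alone and 0.14 with RA on both sides, HSPE1 was 0.067, 0.025 and on average 0.046, and ERO1A was 0.19 with Noggin alone and 0.0092 on average. That covariate tracks the Noggin groups, and under it 0 probe sets of the whole table were called lower in the Noggin comparisons. Under median centring HSPA2 was -0.039 with Noggin alone and 0.0085 for RA with Noggin. With probe sets averaged, HSP90AA1 was 0.040 for Noggin with RA and -0.10 for RA alone. With single arrays left out, HSPA8 ran from -0.18 to 0.057 for Noggin alone and from -0.074 to 0.047 with RA on both sides, HSPA2 from -0.13 to 0.029 for RA with Noggin, HSP90AA1 from -0.016 to 0.23 for RA alone, and HSP90B1 from -0.11 to 0.014 for Noggin with RA. The Noggin minus Tris difference ran from -0.0869 to -0.0600 for the EF1A ratio (exact permutation p up to 0.0584) and from -0.0509 to -0.0194 for the actin ratio (lowest exact permutation p = 0.0260). The cause of these changes was not tested. The 18 pairs of arrays with the same replicate number correlated at -0.0978 to 0.0695 after removal of group means, and 1 of 12 arrays correlated best with its own number. With the replicate block the counts among the 7 genes stayed at 0, the average calls of DNAJB6 and CALR and that of TRAP1 with Noggin alone were lost, and the whole table gave 303 probe sets called lower with Noggin alone in place of 424. Intensities below the array background, as for the second HSPH1 probe set, set no level.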

Other observations

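The lists of proteasome, heat shock factor and small heat shock protein genes gave no call with Noggin. Proteasome subunits form the protease that degrades unfolded and tagged proteins. Of 26 such genes 0 passed limma's test with Noggin alone (5.69% of all genes), with RA on both sides (0.276%) or on average (12.3%). The lowest adjusted p on average was 0.0506 by limma, just above the threshold, and no inference is drawn from these counts. With Noggin alone the median of the 26 was -0.15, beside 0.04 for all genes. Below 0 were 21 of the 26, and 4552 of all 10158 genes. For the average effect the median of the 26 was -0.12. Of 6 tested heat shock factor genes 0 passed with Noggin alone, with RA on both sides or on average. Of all genes 5.69%, 0.276% and 12.3% did, so with 6 genes a count of 0 is near these shares. HSF2 was at -0.15 on average (adjusted p = 0.169). Of 6 tested small heat shock protein genes 0 passed in the same 3 comparisons, again near the shares of all genes, with a median of 0.10 on average. HSPB9 read 1262 with Tris+DMSO, 1821 with Noggin+DMSO, 1930 with Tris+RA and 1347 with Noggin+RA as group means, with an average Noggin difference of 0.03 (adjusted p = 0.939).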
